A study of Mus musculus with 7 samples.

Results

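The Hox cluster genes are the rows of the uterine RNA-seq table whose symbol is Hox, a cluster letter from a to d, and a paralogue number. Members were chosen by symbol, and 39 of the 31274 rows matched: 11 Hoxa, 10 Hoxb, 9 Hoxc and 9 Hoxd genes. No expression value enters that pattern, but the family was picked for description with earlier results of the same estrus and diestrus comparison known, so its counts are given as a description. RNA was sequenced from whole uteri of intact, untreated CD-1 mice, an outbred stock, at 2 months of age. Uteri in estrus, the phase that follows the estradiol peak, gave 3 libraries, and uteri in diestrus, the luteal phase, when progesterone is the main ovarian steroid, gave 4 libraries. No allele, transgene or agent distinguished the groups, and nothing in the labels ties a library to an animal of its own. The p-values therefore cover library-to-library spread, part of which can be technical.

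Hox genes encode homeodomain transcription factors and lie side by side in 4 clusters, where the paralogue number follows their order along the chromosome. In the embryo the low numbers act toward the head and the high numbers toward the tail, and genes with the same number in different clusters are closely related copies. In the mouse reproductive tract the Hoxa genes with high numbers are laid out along the Müllerian duct: Hoxa9 in the oviduct, Hoxa10 in the uterus, Hoxa11 in the uterus and cervix, and Hoxa13 in the cervix and upper vagina. Hoxa10 and Hoxa11 stay active in the adult endometrial stroma, and female mice that lack either gene have impaired implantation and decidualization.

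Values are FPKM, which divides fragments by transcript length and by library total, so levels of different genes can be set side by side. A gene that reached 1 FPKM in 3 or more libraries was tested with limma on log2(FPKM + 1), and a gene was called when its p-value, adjusted by the Benjamini-Hochberg method over all 13920 tested genes, was under 0.05. Of the 39 members 20 were tested. Each fold change is the estrus mean minus the diestrus mean of log2(FPKM + 1), where the added 1 shrinks changes of weakly expressed genes. Relative depth, read from the spacing of the lowest values, ran from 0.93 to 1.22 times that of estrus replicate 1 among the estrus libraries and from 1.06 to 1.35 times among the diestrus libraries, while absolute depth was unknown. Diestrus replicate 1 lay nearest to the estrus libraries on the first principal component of all tested genes, which held 60.2% of the variance. The 10 highest rows of a library held 33.7% to 38.2% of its summed FPKM in estrus and 12.1% to 34.2% in diestrus, and with median-ratio scaling, which does not rest on that sum, the log2 fold change of Hoxa10 was -2.05.

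The clusters differed in which members the uterus expressed. In diestrus the highest Hox transcripts were Hoxa10 and Hoxa11, followed by Hoxd10, Hoxb7 and Hoxb6. In estrus Hoxa10 was still the highest, at 36.0 ± 2.58 FPKM (SD, n = 3), but it stood within the spread of Hoxb7, at 33.7 ± 2.50 FPKM, and Hoxb6, at 32.7 ± 6.0 FPKM. Paralogues 12 and 13 were near 0 in every cluster: Hoxb13, Hoxc12 and Hoxc13 were listed at 0 in all 7 libraries, and Hoxa13 reached 0.171 FPKM at most. The members whose mean reached 10 FPKM in at least 1 group were paralogues 9 to 11 of Hoxa, 6 to 8 of Hoxb and 8 to 11 of Hoxd, while no Hoxc gene exceeded 3.20 FPKM.

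**Figure D1:**
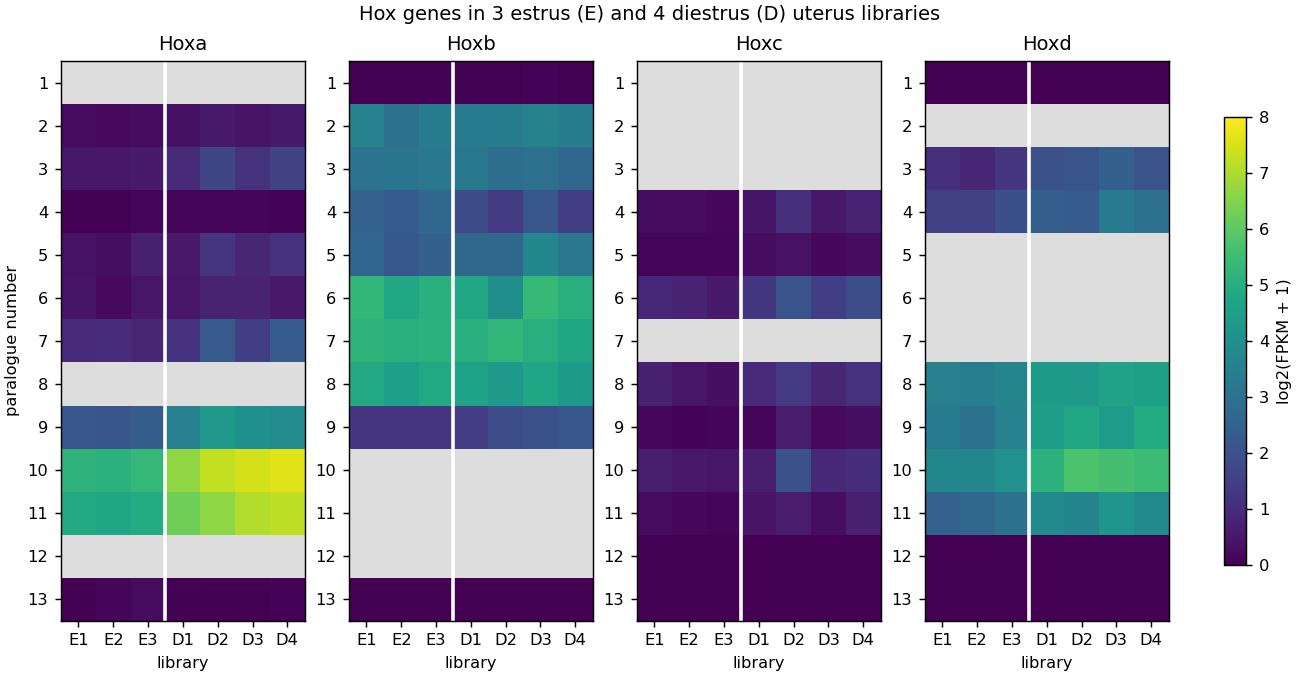
Level of the Hox rows as log2(FPKM + 1), coloured from 0 to 8, with paralogue number down the side, estrus libraries (E1 to E3) left of the white line and diestrus libraries (D1 to D4) right of it; grey marks numbers with no value shown in that cluster. Hoxa10 and Hoxa11 were the brightest rows in diestrus, and Hoxb6 to Hoxb8 had similar colours in both groups.

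Of the 20 tested members, 12 were called lower in estrus, where 14.0% of all tested genes were called lower, and 1 was called higher, where 17.2% of all tested genes were called higher. The called decreases were Hoxa3, Hoxa9, Hoxa10, Hoxa11, Hoxb9, Hoxc6, Hoxd3, Hoxd4, Hoxd8, Hoxd9, Hoxd10 and Hoxd11, and the called increase was Hoxb4. The median log2 fold change of the tested members was -0.90, beside 0.048 for all tested genes. These shares describe a family picked with the results in view. The filter also shaped them: 4 tested members (Hoxa3, Hoxa7, Hoxc6 and Hoxd3) reached 1 FPKM in 3 libraries only with the help of diestrus, where they were high. These counts moved when single libraries were dropped. Without estrus replicate 2, 8 members were called lower and 0 higher, in a fit that called 579 of 13770 genes lower and 854 higher. Without estrus replicate 1, 9 members were called lower and 0 higher, in a fit that called 1106 of 13764 genes lower and 1527 higher. Without diestrus replicate 4, 9 of 19 tested members were called lower and 0 higher, where 1139 of 13708 genes were called lower and 1420 higher. Without diestrus replicate 1, 13 were called lower and 1 higher, in a fit that called 2445 of 13789 genes lower and 2866 higher. Among the 16 members with at least 1 FPKM in every library, 9 were called lower and 1 higher.

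Every estrus library lay below every diestrus library for 14 of the 20 tested members, an order that 18.7% of all tested genes showed. The 14 include the 4 members that passed the filter only with the help of diestrus. Of the 16 members with at least 1 FPKM in every library, 10 showed this order. It was also found for 6 of the 19 members that were not tested, whose values did not exceed 2.95 FPKM. The share of untested genes with this order was not computed. The opposite order was found for 1 member, Hoxb4, and 21.9% of all tested genes showed it. For the other 18 of the 39 members the groups overlapped or all values were 0. The 20 members with estrus below diestrus, the 6 untested ones included, comprised 6 Hoxa, 2 Hoxb, 6 Hoxc and 6 Hoxd genes.

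Hoxa10, which the mouse uterus needs for implantation, was at 35.5, 33.8 and 38.8 FPKM in the estrus libraries, against 102, 153, 179 and 195 FPKM in the diestrus libraries. The groups did not overlap, and the diestrus mean of 157 ± 40.6 FPKM (SD, n = 4) was 4.37 times the estrus mean. The log2 fold change was -2.06 (SE 0.22, limma adjusted p = 0.00153). The estrus libraries were close to each other, whereas the diestrus values spread more widely, with diestrus replicate 1 lowest. Among the 13920 tested genes, 117 had a log2 fold change as low or lower. Hoxa10 lies on the minus strand of GRCm38 chromosome 6, from 52231197 to 52240854, and is protein-coding.

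Hoxa11, the neighbour of Hoxa10 (chromosome 6, 52242106 to 52245810, minus strand), was at 27.9, 25.0 and 29.1 FPKM in estrus, against 74.1, 99.3, 134 and 150.1 FPKM in diestrus. It fell by -1.98 on the log2 scale (SE 0.24, limma adjusted p = 0.00224), again without overlap and with diestrus replicate 1 lowest. The ratio of Hoxa10 to Hoxa11 within a library stayed narrow while both levels changed: it was 1.27 to 1.35 in estrus and 1.30 to 1.55 in diestrus. Hoxa11os, a noncoding transcript on the opposite strand whose exons overlap those of Hoxa11 over 800 bases, was at 16.2, 11.7 and 14.7 FPKM in estrus, against 54.2, 39.3, 170.4 and 135 FPKM in diestrus (log2 fold change -2.49, SE 0.50, limma adjusted p = 0.0102). The labels do not say that the libraries kept strand, so reads from the overlapping part cannot be assigned to either gene with certainty. The ratio of Hoxa11 to Hoxa11os was 1.72 to 2.13 in estrus and varied from 0.786 to 2.53 in diestrus.

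Hoxa9, on the other side of Hoxa10 (chromosome 6, 52223100 to 52231089), had lower values of 3.53, 3.45 and 4.18 FPKM in estrus, against 10.3, 19.0, 15.1 and 13.5 FPKM in diestrus. It fell as well, by -1.68 on the log2 scale (SE 0.20, limma adjusted p = 0.00206). Ovgp1, the oviductal glycoprotein gene, was at 2.53, 0.906 and 1.17 FPKM in estrus, against 8.67, 53.2, 19.5 and 8.79 FPKM in diestrus, so both genes were highest in diestrus replicate 2. The part of oviduct RNA in the Hoxa9 values was not tested. Together Hoxa9, Hoxa10, Hoxa11 and Hoxa13 summed to 66.9, 62.3 and 72.2 FPKM in estrus, against 186, 272, 328 and 359 FPKM in diestrus.

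**Figure D2:**
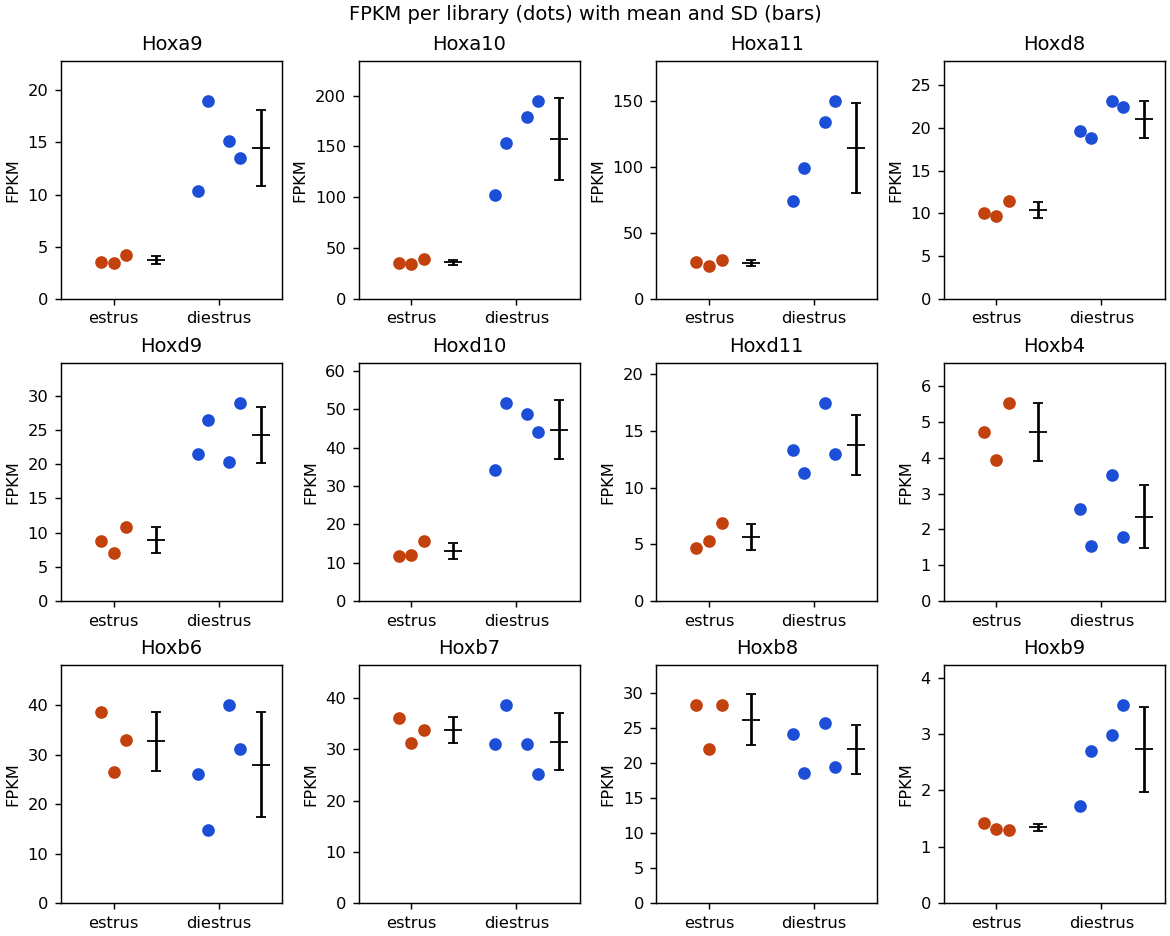
FPKM of 12 Hox genes in each library (dots; estrus left in orange, diestrus right in blue) with the mean and SD as bars; each axis starts at 0. Hoxa9 to Hoxa11 and Hoxd8 to Hoxd11 had no estrus value as high as any diestrus value, while Hoxb6, Hoxb7 and Hoxb8 overlapped.

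The lower-numbered Hoxa genes were weakly expressed. Hoxa3, a patterning gene of the neck region, was at 0.444, 0.419 and 0.501 FPKM in estrus and at 0.954, 2.16, 1.27 and 1.93 FPKM in diestrus. It was called lower (log2 fold change -0.80, SE 0.19, limma adjusted p = 0.0203), but with adjusted p values of 0.0615 without estrus replicate 1 and 0.0853 without estrus replicate 2. Hoxa3 passed the filter in only 4 of the fits that dropped a library and was called in 2 of these. Hoxa7 did not pass (log2 fold change -0.87, SE 0.29, limma adjusted p = 0.0564), although its estrus values of 0.799 to 1.00 FPKM lay below its diestrus values of 1.24 to 4.04 FPKM. It passed without diestrus replicate 1 (adjusted p = 0.0139), and its adjusted p was 0.0663 to 0.140 in the 6 fits that dropped another library. Hoxa2, Hoxa4, Hoxa5, Hoxa6 and Hoxa13 were not tested.

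The Hoxd genes took the same direction. Hoxd10 (chromosome 2, 74691924 to 74695105, plus strand), the Hoxd copy of Hoxa10, was at 11.8, 11.9 and 15.5 FPKM in estrus, against 34.2, 51.7, 48.8 and 44.1 FPKM in diestrus. It fell by -1.70 on the log2 scale (SE 0.17, limma adjusted p = 0.00141), and the highest estrus library was below the lowest diestrus library. Hoxd9 (chromosome 2, 74697727 to 74700208) was at 8.79, 7.03 and 10.8 FPKM in estrus, against 21.5, 26.5, 20.3 and 29.0 FPKM in diestrus, and fell by -1.36 (SE 0.18, adjusted p = 0.00279). Its diestrus libraries had no common order with those of Hoxd10, since replicate 3 was lowest for Hoxd9 and replicate 1 for Hoxd10.

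Hoxd11, the copy of Hoxa11 (chromosome 2, 74679557 to 74687016), was at 4.67, 5.32 and 6.91 FPKM in estrus, against 13.3, 11.3, 17.5 and 13.0 FPKM in diestrus, and fell by -1.15 on the log2 scale (SE 0.18, limma adjusted p = 0.00468). Hoxd8 (chromosome 2, 74704615 to 74707933) was at 10.1, 9.72 and 11.5 FPKM in estrus, against 19.6, 18.8, 23.2 and 22.5 FPKM in diestrus. Its log2 fold change of -0.94 was smaller than that of Hoxd10, but it had the smallest SE of the tested members, 0.12, and an adjusted p of 0.00275. In both genes the groups did not overlap. The exons of Hoxd11 and Hoxd10 overlap those of Gm28309, a transcript of the same strand with no value here, over 455 and 104 bases. Hoxd12 and Hoxd13, which pattern the limb ends and the external genitalia, did not exceed 0.0165 FPKM.

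Toward the other end of the cluster, Hoxd3 was at 1.17, 0.831 and 1.40 FPKM in estrus, against 2.95, 3.19, 4.51 and 3.13 FPKM in diestrus, and fell by -1.05 (SE 0.17, limma adjusted p = 0.00521). Hoxd4 was at 1.87, 1.98 and 2.89 FPKM in estrus, against 4.31, 3.95, 8.67 and 6.62 FPKM in diestrus, and also had a log2 fold change of -1.05, with a wider SE of 0.26 and an adjusted p of 0.0218. Both genes were highest in diestrus replicate 3. The Hoxd4 call was lost without estrus replicate 1 (adjusted p = 0.0713), estrus replicate 2 (0.0892) or diestrus replicate 4 (0.0568). The annotated exons of Hoxd3 and Hoxd4 overlap those of Gm28230, a protein-coding gene of the same strand with no value here, over 2225 and 1154 bases, and each other over 388 bases, and those of the noncoding Hoxd3os1 overlap each of them over 347 bases on the other strand, so the split of reads among these genes is uncertain. Hoxd3os1 did not pass (log2 fold change -0.80, SE 0.27, adjusted p = 0.0545).

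Start site windows of paralogues 10 and 11 of Hoxa and Hoxd are shown because these 4 genes fell together in both clusters, using the RefSeq promoter table for GRCm38.p6. It holds windows from 250 bases before to 50 bases after a start, and 24 such windows covered 22 of the 39 members. They were searched on both strands for TATAAA as a TATA box, for TAATTA as a homeodomain core, for TGATNNAT as a Hox and Pbx composite site and for ACANNNTGT as spaced steroid receptor binding letters, and also for the palindromic estrogen response element. Of the pair of windows that Hoxa10 and Hoxd11 each have, the one with more matches is shown. Matches are in capitals, as read 5′ to 3′ on the gene's strand.
Hoxa10, internal start, chr6:52234890-52235189, minus strand: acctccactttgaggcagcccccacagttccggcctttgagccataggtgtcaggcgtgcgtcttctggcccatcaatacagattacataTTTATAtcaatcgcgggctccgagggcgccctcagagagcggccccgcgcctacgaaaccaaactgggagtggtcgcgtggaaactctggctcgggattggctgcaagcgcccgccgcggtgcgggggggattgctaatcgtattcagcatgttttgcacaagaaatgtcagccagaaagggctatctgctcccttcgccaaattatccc
Hoxa11, chr6:52245761-52246060, minus strand: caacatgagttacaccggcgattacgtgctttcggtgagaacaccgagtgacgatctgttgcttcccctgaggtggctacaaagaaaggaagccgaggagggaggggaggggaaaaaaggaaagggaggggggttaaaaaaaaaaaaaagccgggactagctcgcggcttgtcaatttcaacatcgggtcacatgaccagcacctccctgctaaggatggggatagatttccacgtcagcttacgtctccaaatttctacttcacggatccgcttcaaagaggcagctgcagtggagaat
Hoxd10, chr2:74691641-74691940, plus strand: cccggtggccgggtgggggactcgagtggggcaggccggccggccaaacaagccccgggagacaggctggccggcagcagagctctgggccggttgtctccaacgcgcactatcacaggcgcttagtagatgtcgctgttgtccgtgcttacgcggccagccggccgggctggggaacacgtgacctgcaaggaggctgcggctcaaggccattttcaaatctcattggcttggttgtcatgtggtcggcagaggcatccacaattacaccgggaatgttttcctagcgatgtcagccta
Hoxd11, internal start, chr2:74682073-74682372, plus strand: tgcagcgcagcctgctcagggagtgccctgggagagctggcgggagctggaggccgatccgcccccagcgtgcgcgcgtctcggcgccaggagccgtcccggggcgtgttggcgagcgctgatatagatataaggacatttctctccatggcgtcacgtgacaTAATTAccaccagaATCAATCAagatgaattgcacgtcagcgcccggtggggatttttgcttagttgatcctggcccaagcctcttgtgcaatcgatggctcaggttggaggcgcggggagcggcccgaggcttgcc

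In the Hoxa10 window the capitals are the reverse complement of TATAAA, beginning 160 bases before the start, and the other Hoxa10 window had no match. The Hoxd11 window holds TAATTA at 87 bases and the reverse complement of TGATNNAT at 73 bases before the start, and the other Hoxd11 window, not shown, holds TAATTA at 81 bases. The Hoxa11 and Hoxd10 windows had no match. Over the 24 Hox windows, TGATNNAT was found in 16.7%, against 8.85% of all 32851 windows, TATAAA in 16.7% against 13.6%, and TAATTA in 8.33% against 5.29%. Neither steroid receptor motif was found in a Hox window, where 6.85% of all windows held ACANNNTGT and 0.0700% the estrogen response element. The Hox windows had a median GC content of 57.6%, against 52.7% for all windows. A match is a string of letters and not a binding site.

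Hoxb was the cluster with the most tested members that were not called. Hoxb7 (chromosome 11, 96286623 to 96290162, plus strand) was at 36.2, 31.2 and 33.8 FPKM in estrus, against 31.1, 38.7, 31.1 and 25.1 FPKM in diestrus. The groups overlapped, and the log2 fold change was 0.11 (SE 0.15, limma adjusted p = 0.604), or -0.05 with quantile normalization. Within a library, the ratio of Hoxa10 to Hoxb7 was 0.981 to 1.15 in estrus and 3.28 to 7.79 in diestrus.

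Hoxb6 was at 38.6, 26.6 and 32.9 FPKM in estrus, against 26.1, 14.7, 40.1 and 31.1 FPKM in diestrus, the widest diestrus spread among the abundant Hoxb genes, and did not pass (log2 fold change 0.29, SE 0.31, limma adjusted p = 0.50). With library weights its fold change turned to -0.10, and Hoxa7, Hoxb2 and Hoxb5 were then called lower. Hoxb8 was at 28.3, 22.0 and 28.3 FPKM in estrus, against 24.2, 18.6, 25.7 and 19.4 FPKM in diestrus (log2 fold change 0.25, SE 0.16, adjusted p = 0.263). In both genes the groups overlapped. Hoxb2, a hindbrain gene, had values of 6.82 to 10.8 FPKM in estrus and 8.85 to 10.9 FPKM in diestrus, and its log2 fold change of -0.10 (adjusted p = 0.654) became 0.07 without estrus replicate 2. Hoxb3 ranged from 7.26 to 8.17 FPKM in estrus and from 5.44 to 8.37 FPKM in diestrus (log2 fold change 0.17, SE 0.15, adjusted p = 0.401). The exons of Hoxb2 and Hoxb3 overlap the antisense transcript Hoxb3os, over 953 and 2250 bases.

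Hoxb4, which is known for promoting the expansion of blood stem cells, was the member called higher. It was at 4.71, 3.93 and 5.54 FPKM in estrus, against 2.56, 1.54, 3.52 and 1.80 FPKM in diestrus, with no overlap between the groups. The log2 fold change was 0.80 (SE 0.22, limma adjusted p = 0.0325). The call was lost when single libraries were left out: the adjusted p was 0.0849, 0.0761 and 0.0872 without estrus replicates 1, 2 and 3, and 0.0637 and 0.0807 without diestrus replicates 2 and 4. Its neighbour on the side of the higher paralogue numbers, Hoxb5, went the other way in its values. Hoxb5 was at 5.09, 3.62 and 4.47 FPKM in estrus against 5.57, 5.55, 12 and 8.05 FPKM in diestrus, but did not pass (log2 fold change -0.65, SE 0.26, adjusted p = 0.0893). The neighbour on the other side, Hoxb3, had a log2 fold change of 0.17 and did not pass either (limma adjusted p = 0.401). The ratio of Hoxb4 to Hoxb5 was 0.925 to 1.24 in estrus and 0.224 to 0.460 in diestrus.

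Hoxb9 was the Hoxb member called lower, at 1.42, 1.32 and 1.29 FPKM in estrus, against 1.72, 2.70, 2.98 and 3.52 FPKM in diestrus (log2 fold change -0.65, SE 0.19, limma adjusted p = 0.0359). It shares its paralogue number with Hoxa9 and Hoxd9, which were also called lower. Its call was lost without any 1 library other than diestrus replicate 1: the adjusted p was 0.0830, 0.121 and 0.0811 without estrus replicates 1, 2 and 3, and 0.0675, 0.0774 and 0.0833 without diestrus replicates 2, 3 and 4.

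**Figure D3:**
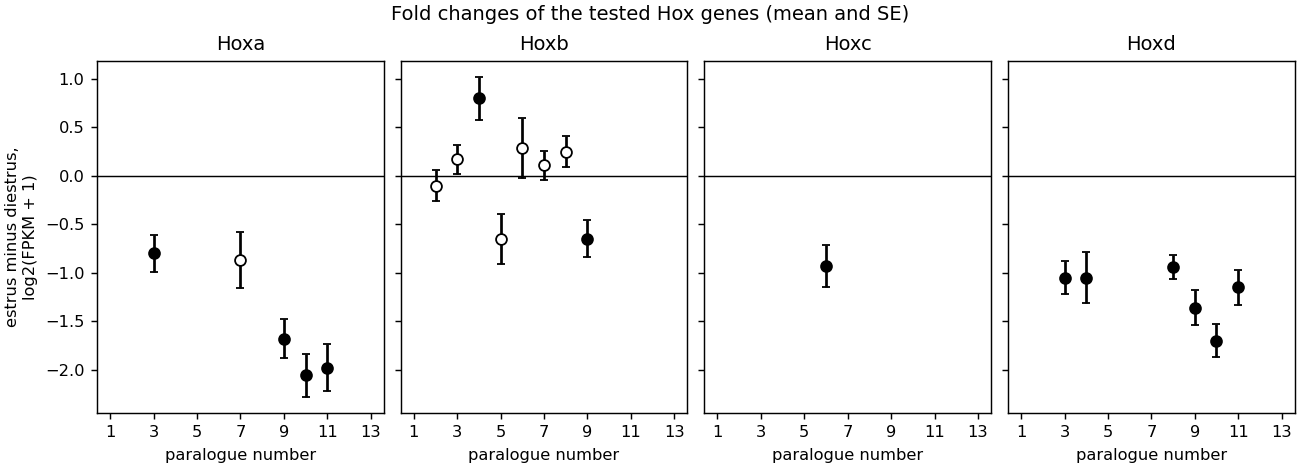
Fold change of each of the 20 tested Hox genes, as the estrus minus the diestrus mean of log2(FPKM + 1), against paralogue number, with bars of 1 SE; filled dots are called genes and open dots are not. Hoxa10, at -2.06, and Hoxa11, at -1.98, lie lowest, and Hoxb4, at 0.80, is the filled dot above 0.

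The Hoxc genes were the most weakly expressed cluster, and Hoxc6 alone passed the filter. Hoxc6 was at 0.903, 0.695 and 0.509 FPKM in estrus, against 1.44, 3.20, 1.77 and 2.81 FPKM in diestrus. It was called lower (log2 fold change -0.93, SE 0.22, limma adjusted p = 0.0190), with adjusted p values of 0.0767 without estrus replicate 2 and 0.0557 without estrus replicate 3. Hoxc4, Hoxc5, Hoxc8, Hoxc10 and Hoxc11 also had every estrus library below every diestrus library, at levels up to 2.95 FPKM, which Hoxc10 reached in diestrus replicate 2 against 0.604 to 1.05 FPKM in the other diestrus libraries. For untested genes as a whole, the share with this order was not computed. Over the 19 members that were not tested, the highest estrus value was 0.660 FPKM.

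Read by paralogue number across clusters, all 7 tested members of numbers 9 to 11 were called lower, beside 14.0% of all tested genes called lower and 17.2% called higher. These were Hoxa9, Hoxb9 and Hoxd9, Hoxa10 and Hoxd10, and Hoxa11 and Hoxd11. Of the 7 tested members of numbers 5 to 8, Hoxc6 and Hoxd8 were called lower. Of the 6 tested members of numbers 2 to 4, Hoxa3, Hoxd3 and Hoxd4 were called lower and Hoxb4 higher. Within clusters, all 6 tested Hoxd genes and 4 of 5 tested Hoxa genes were called lower, against 1 of 8 tested Hoxb genes. These counts include Hoxa3, Hoxc6 and Hoxd3, which passed the filter only with the help of diestrus. Differences between clusters or between numbers were not tested.

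Summed over its 11 rows, Hoxa stood at 69.1, 64.3 and 74.9 FPKM in estrus, against 190.0, 280.4, 333 and 367 FPKM in diestrus. Hoxd summed to 38.3, 36.8 and 49.0 FPKM in estrus, against 95.9, 115, 123 and 118 FPKM in diestrus. Hoxb summed to 132, 103 and 124 FPKM in estrus, against 108, 97.6, 133 and 104 FPKM in diestrus, where the groups overlapped. The make-up of the Hox total therefore differed: Hoxb supplied 49.7% to 54.6% of it in estrus and 17.4% to 27.2% in diestrus, while Hoxa supplied 28.5% to 31.2% in estrus and 47.7% to 61.6% in diestrus. Diestrus replicate 1 had the lowest Hox total of its group, 398 FPKM beside 504, 594 and 596 FPKM, and was the lowest diestrus library for 8 of the 12 members called lower.

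**Figure D4:**
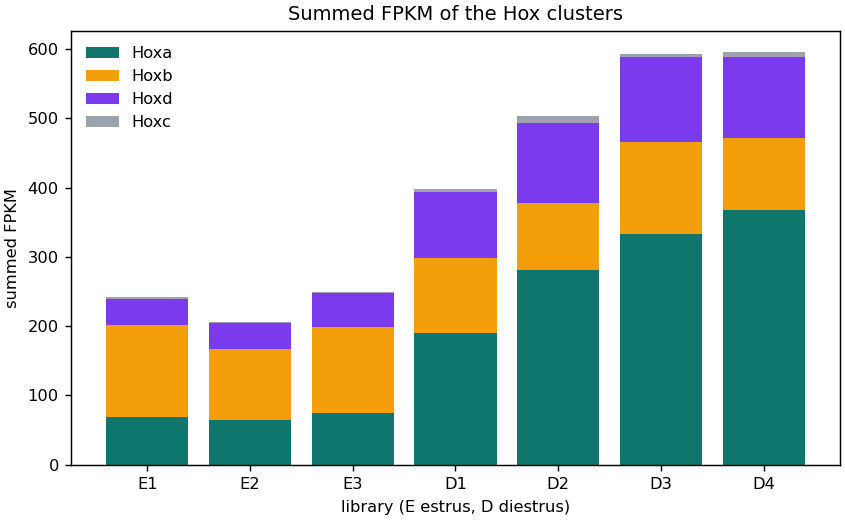
Summed FPKM of the Hox rows in each library, stacked by cluster, with estrus libraries (E1 to E3) left of diestrus libraries (D1 to D4). The Hox total was 206 to 249 FPKM in estrus and 398 to 596 FPKM in diestrus, and the Hoxb part overlapped between the groups.

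Cell type markers also moved between the groups. Of 18 tested endometrial stroma markers 7 were called lower and none higher, beside 14.0% of all tested genes called lower and 17.2% called higher. The log2 fold change was negative for 11 of the 18 stroma markers, with a median of -0.40. Their summed levels were 5078 to 6661 FPKM in estrus and 4099 to 7593 FPKM in diestrus. Of 20 epithelium markers 12 were called higher and none lower, with a median of 1.29 and sums of 4171 to 4739 FPKM in estrus and 1443 to 2127 FPKM in diestrus. In whole uteri, fewer cells of a type and less RNA per cell cannot be told apart.

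Other lists gave the following values, to be read beside 14.0% of all tested genes called lower and 17.2% called higher. Of 21 smooth muscle markers 1 was called lower (Smtn) and 1 higher (Actg2), with a median log2 fold change of -0.33. Of 17 endothelium markers 11 were called lower and none higher, with a median of -1.03 and sums of 279 to 342 FPKM in estrus and 403 to 890.3 FPKM in diestrus. Of 11 tested leukocyte markers 6 were called lower and 1 higher, Itgam, with a median of -1.27. The 12 squamous epithelium markers of vagina and cervix summed to 7.66 to 25.5 FPKM in estrus and 4.22 to 6.06 FPKM in diestrus, and neither of the 2 tested was called. The 9 ovary and oviduct markers summed to 5.79 to 9.29 FPKM in estrus and 16.9 to 70.2 FPKM in diestrus, with 3 of 4 tested called lower (Ovgp1, Star and Inha) and the oocyte gene Zp3 at 0 in every library. The part of these cell types in the Hox values was not tested.

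Hox proteins bind DNA together with homeodomain partners of the TALE class, the Pbx, Meis and Pknox proteins. All 10 tested genes of this list had negative log2 fold changes, with a median of -0.49, and 4 were called lower. Of all tested genes 14.0% were called lower, and their median log2 fold change was 0.048. Meis2 was at 12.4, 13.4 and 16.0 FPKM in estrus, against 27.1, 64.3, 28.5 and 45.9 FPKM in diestrus (log2 fold change -1.43, SE 0.30, limma adjusted p = 0.0124). Meis3 and Pknox2 fell by -0.88 and -0.63, with adjusted p values of 0.00686 and 0.0225. Over the 7 fits that dropped a library, Meis3 was called in 7, Meis2 in 6 and Pknox2 in 3. In Meis2, Meis3 and Pknox2 every estrus library lay below every diestrus library, an order that 18.7% of all tested genes showed. Pbx2 (-0.30), Pbx3 (-0.21), Meis1 (-0.47), Pknox1 (-0.26) and the related repressors Tgif1 (-0.51) and Tgif2 (-0.40) did not pass, with adjusted p values from 0.0563 to 0.511, and Pbx4 was not tested.

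Of 16 tested protein-coding genes that border the clusters, 5 were called higher, 2 were called lower and 9 were not called, where 17.2% of all tested genes were called higher and 14.0% lower, with a median log2 fold change of 0.27. Skap2, an adaptor protein gene beside the Hoxa cluster, was at 38.9, 52.6 and 49.9 FPKM in estrus, against 23.7, 22.7, 25.7 and 22.5 FPKM in diestrus, and rose by 0.96 (SE 0.13, limma adjusted p = 0.00322). Cbx5 and Atp5g3 rose by 1.35 and 1.02, and Skap1, near the Hoxb cluster, fell by -1.08 (adjusted p = 0.00898). Skap1, at 0.442 to 0.804 FPKM in estrus and 1.71 to 3.71 FPKM in diestrus, passed the filter only through diestrus. The homeobox genes Evx1 and Evx2, which flank the high-number ends of Hoxa and Hoxd, were listed at 0 in all libraries. Of 5 tested noncoding transcripts of the clusters, Hoxa11os alone was called. Hotair, the noncoding RNA of the Hoxc cluster, did not exceed 0.130 FPKM, and Hottip, at the end of Hoxa, 0.0111 FPKM.

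Among regulators of the clusters, 7 of 30 tested Polycomb and trithorax genes were called lower and 1 higher, with a median log2 fold change of -0.09. The shares of all tested genes were 14.0% called lower and 17.2% called higher. The called decreases included the Polycomb subunits Cbx7, which fell by -1.56 (SE 0.26, limma adjusted p = 0.00571), Cbx2 (-0.80) and Pcgf2 (-0.76), and the H3K27 demethylase gene Kdm6b (-0.65). Of 11 tested genes for retinoic acid and other upstream signals, 2 were called higher and 3 lower, beside the same shares. The retinoic acid producing enzyme Aldh1a2 was at 209, 258 and 238 FPKM in estrus, against 64.6, 109, 61.8 and 52.5 FPKM in diestrus, and rose by 1.75 (SE 0.24, adjusted p = 0.00324). The receptor gene Rara rose by 0.49, Gdf11, a ligand that acts on posterior Hox genes in the embryo, fell by -0.97 (adjusted p = 0.00279), and Aldh1a3 fell by -1.77. Aldh1a3, at 0.169 to 0.355 FPKM in estrus, and Rarb, also called lower and at 0.427 to 0.685 FPKM, passed the filter only through diestrus, where they were high. Aldh1a3 was called in 1 of the 4 fits without a library that tested it. None of the 4 tested steroid receptor genes was called, with adjusted p values of 0.188 for Esr1, 0.187 for Pgr and 0.338 for Nr3c1. Pgr was at 64.0, 92.6 and 89.0 FPKM in estrus, against 109, 42.6, 33.8 and 29.3 FPKM in diestrus, highest in diestrus replicate 1. Over the 7 fits that dropped a library, its limma adjusted p ran from 0.00606 to 0.382 and was under 0.05 in 1.

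Of 16 tested genes linked to Hoxa10 or Hoxa11 in the uterus, 3 were called higher and 2 lower, with a median log2 fold change of -0.11. These counts were near the shares of all tested genes, of which 17.2% were called higher and 14.0% lower. The prostaglandin receptor gene Ptger3, whose stromal expression depends on Hoxa10 in mice, was at 10.2, 11.2 and 15.0 FPKM in estrus, against 17.9, 43.3, 35.1 and 59.3 FPKM in diestrus, and fell by -1.50 (SE 0.37, limma adjusted p = 0.0205). Fst, which encodes the activin-binding follistatin, fell by -2.12, and the cell cycle inhibitor gene Cdkn1a and the cytokine gene Lif rose by 1.17 and 2.08, with adjusted p values of 0.0256, 0.00864 and 0.00532. Over the 7 fits that dropped a library, Fst was called in 3, Ptger3 in 5, and Cdkn1a and Lif in 7 each. Of 17 tested Müllerian duct patterning genes, 4 were called lower and none higher, beside the same shares of all tested genes. Osr2, a zinc finger factor, was at 26.7, 24.0 and 27.0 FPKM in estrus, against 131, 161, 149 and 119.5 FPKM in diestrus, and fell by -2.38 (SE 0.13, adjusted p = 0.000312). Hand2, Tcf21 and Nr2f2, all factors of stroma or mesenchyme, fell by -1.95, -0.82 and -0.78. All of them are also in the list of endometrial stroma markers, so their calls count in both lists. Of 26 tested homeobox genes outside the Hox clusters, 9 were called lower and 6 higher, beside those shares, with a median of -0.27. Tshz3, Tshz1 and Satb1 fell by -1.05, -1.20 and -1.30, and Six4 rose by 0.96.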

How the data were processed

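The authors deposited 1 table of FPKM per library, for which the submitters' processing notes name TopHat2 2.0.4 and mm10 without giving either a role. Libraries were TruSeq, per the labels' protocols, and strand retention and the FPKM program were not stated. Columns were matched by sample description, and 0 were left over. From the deposited FPKM, limma 3.58.1 in R 4.3.3 was fitted to log2(FPKM + 1) of 13920 genes with a 2-group design, an intensity trend and two-sided Benjamini-Hochberg adjusted p-values (threshold 0.05), and was checked on simulated data. FPKM steps gave relative depth (values under 0.3, bins of 0.02). Gene spans and exons are those of GENCODE M21 on GRCm38, the assembly called mm10.

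Members and the 16 gene lists were chosen with earlier results of these data known. Values of every library are given for members with a mean of at least 10 FPKM in a group or a call. Of the tested TALE genes and up to 4 genes of smallest p per list, some are given with values of every library. Others are given by fold change or adjusted p, or enter a count alone. Values of Hoxa7, Hoxb2, Hoxb3, Hoxb5, Hoxc10, Hoxd3os1, Hotair, Hottip, Mir196a-1, Rarb, Krt5 and Krt14, and ratios between members, were added after values were seen. Some genes of the lists passed the filter only through the group where they were high. Alternatives changed the pseudocount (0.1 or 5), the filter (none, or a mean of 5 FPKM or more), the scaling (median ratio or quantile), the moderation (without the trend, or robust), the weighting of libraries or the blocking by replicate number, or dropped each library in turn. Python 3.11.15 and matplotlib 3.10.9 were used. Protein sequences were not used here, and a few genes of the lists and of the family are not reported here by name.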

Additional observations from a re-analysis of the deposited data

Results flagged for a closer look

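Diestrus replicate 3 stood apart for Hoxd3, at 4.51 FPKM against 2.95, 3.19 and 3.13 FPKM in the other diestrus libraries. The gap to its nearest neighbour was 0.849 of the group's range, above the 95% critical value of Dixon's test for 4 samples. It was the sole such case among the 20 tested members, and chance gives about 1 in 20 such groups. The same library was also the highest diestrus library for Hoxd4, whose annotated exons overlap those of Hoxd3. The Hoxd3 call did not rest on it: leaving out single libraries gave adjusted p values from 0.00560 to 0.0331 in limma.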

How the results depend on the processing

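Of the 13 called members, 8 (Hoxa9, Hoxa10, Hoxa11, Hoxd3, Hoxd8, Hoxd9, Hoxd10 and Hoxd11) were called in every one of the 17 alternatives that tested them. The number of Hox genes called lower was 7 with a mean of at least 5 FPKM, where 13 members were tested, and between 8 and 13 over the fits that dropped a library, with 8 without estrus replicate 2. The number called higher was 0 with no filter, with a mean of at least 5 FPKM and with the replicate block, and 0 or 1 over the fits that dropped a library. Of all tested genes 4336 were called, 9367 with library weights, whose estimation stopped before reaching its tolerance, 2281 with the replicate block, and between 1433 and 5311 over the fits that dropped a library, with 1433 without estrus replicate 2, 2559 without diestrus replicate 4 and 2633 without estrus replicate 1. The fold change turned its sign for Hoxb2 without estrus replicate 2 (0.07, where dropping other libraries gave values down to -0.23), Hoxb6 with library weights (-0.10) and Hoxb7 with quantile normalization (-0.05), none of which was called in that fit. Library weights called 15 Hox genes lower, among them Hoxa7, Hoxb2 and Hoxb5 (adjusted p = 0.00285, 0.0161 and 0.00145), which were not called otherwise except Hoxa7 with a pseudocount of 0.1 (0.0465) and without diestrus replicate 1 (0.0139). Why these values moved was not tested, apart from the fewer genes or libraries in the fit. The replicate block left 9 Hox genes lower, without Hoxa3, Hoxb9 and Hoxc6. Same-numbered libraries share only a number: their deviations from the group means correlated at 0.198, 0.024 and 0.169 across genes for replicates 1 to 3, while estrus replicate 2 correlated best with diestrus replicate 1 (0.206) and estrus replicate 3 with diestrus replicate 4 (0.267). What depth allows for members near 0 could not be computed, since absolute depth was unknown.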

Other observations

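The microRNA genes embedded in the Hox clusters were almost not seen in these libraries. Mir10a, Mir10b, Mir196a-2, Mir196b and Mir615 were listed at 0 in all 7 libraries. Mir196a-1, which lies in the Hoxb cluster, was listed at 286 FPKM in estrus replicate 2 and at 283 and 347 FPKM in diestrus replicates 1 and 4, and at 0 in the other 4 libraries. A row this short takes a high FPKM from few fragments, and its log2 fold change of -1.43 had an SE of 2.93 (limma adjusted p = 0.728).

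Squamous keratin genes were highest in estrus replicate 2, where Krt14 was at 7.81 FPKM and Krt5 at 3.17 FPKM. Krt14 was at 1.15 and 0.372 FPKM in estrus replicates 1 and 3, and at 0.0669 to 0.217 FPKM in diestrus. Hoxa13, the Hoxa gene of the cervix and vagina, was at 0.0809 FPKM in that library, between its values in the other estrus libraries, 0.0196 and 0.171 FPKM.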
